A study of Mus musculus with 21 samples.

Results

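The genes described here are 36 mouse genes of the lysosome and of the transcriptional axis that controls it. They were chosen by name from a fixed list, with earlier results of these data known. They comprise 14 hydrolases and hydrolase activators of the lysosomal lumen, 6 lysosomal membrane proteins, 8 subunits of the vacuolar proton pump, and 8 regulators built around the transcription factor TFEB. All 36 were found among the 20145 named genes of the array, which together with unnamed probes gave 37208 entries. A probe stood for a gene where its RefSeq accession led to the gene's symbol, and the brightest of several probes was used. Of the 36 genes, 35 passed the filter on dim signal and were tested in both experiments. The exception was Atp6v0d2, a pump subunit known from osteoclasts and macrophages, which was not well above background on any of the 21 arrays.

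The arrays measured RNA from MIN6m9, a subclone of the mouse insulinoma line MIN6 that serves as a model of the insulin-secreting beta cell. In the fatty acid experiment, wild-type cells were left untreated or received 400 uM oleate or 400 uM palmitate for 48 h, with 3 arrays per group. The PERK experiment used cells carrying the transgene Fv2E-PERK, which received ethanol vehicle (mock) or 1 nM AP20187 for 6, 12, 24 or 48 h, and wild-type cells received mock treatment, with 2 arrays per group. Fv2E-PERK is a PERK kinase fused to a drug-binding domain, and the small molecule AP20187 brings copies of it together and thereby switches the kinase on without other stress of the endoplasmic reticulum. The sources used here name neither the promoter of the transgene, nor whether the line is 1 clone, nor when control cells were harvested. An arm of AP20187 in wild-type cells was not analysed here. Replicates are not said to be separate cultures, and the p-values therefore rest on a spread between samples that could be technical.

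Lysosomes degrade proteins, lipids, glycans and glycogen with hydrolases that work at the acid pH set up by the vacuolar proton pump, a rotary ATPase with a cytosolic V1 sector and a membrane-bound V0 sector. Many of these genes carry an E-box in their promoters that is bound by TFEB, TFE3 and MITF, basic helix-loop-helix factors that enter the nucleus when nutrients are short or lysosomes are damaged. When nutrients are plentiful, the GTPases RagC and RagD, set by folliculin (Flcn) and its partners Fnip1 and Fnip2, hold these factors at the lysosome for phosphorylation by mTORC1, so that regulation of this axis lies largely in protein location, which arrays do not measure.

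The promoters of 7 members are shown because the members were grouped by role in one programme and because the E-box is its known element. The 7 all have an E-box within 120 bases of the start site and lie on the plus strand, so they do not stand for the members at large. Of the 36 members, 31 had a promoter in the RefSeq table (GRCm38.p6), and in the 250 bases before the start site the core CACGTG was present in 14 of them, or 45.2%, against 6.86% of 27025 genes. The core reads the same on both strands. The longer form GTCACGTG, which contains the core and was searched on both strands, was present in 9 members (29.0%) and in 2.11% of genes. TGATGNAA, the composite element bound by ATF4 and CHOP downstream of PERK, was present in 3 members (9.68%) and in 3.91% of genes. Each line gives the 120 bases before the start site, 5′ to 3′ on the plus strand, with each E-box core in capitals. Ctsa, Glb1, Naglu, Lamp1 and Mcoln1 fell at 48 h of AP20187, while Fnip1 and Rragc rose.
Ctsa (chr2:164833653-164833772): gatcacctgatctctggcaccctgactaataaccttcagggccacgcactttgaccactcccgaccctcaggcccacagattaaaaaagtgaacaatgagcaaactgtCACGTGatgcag
Glb1 (chr9:114400958-114401077): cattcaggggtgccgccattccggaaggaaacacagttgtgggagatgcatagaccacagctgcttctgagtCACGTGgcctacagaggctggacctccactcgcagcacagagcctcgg
Naglu (chr11:101069974-101070093): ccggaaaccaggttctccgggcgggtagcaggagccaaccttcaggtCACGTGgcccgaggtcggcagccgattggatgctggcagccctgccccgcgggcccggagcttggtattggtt
Lamp1 (chr8:13159041-13159160): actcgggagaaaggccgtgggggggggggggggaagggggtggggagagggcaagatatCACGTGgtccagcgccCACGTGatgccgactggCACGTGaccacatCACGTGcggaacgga
Mcoln1 (chr8:3500399-3500518): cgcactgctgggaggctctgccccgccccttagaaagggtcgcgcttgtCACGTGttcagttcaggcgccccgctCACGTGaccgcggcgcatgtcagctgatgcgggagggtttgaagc
Fnip1 (chr11:54438059-54438178): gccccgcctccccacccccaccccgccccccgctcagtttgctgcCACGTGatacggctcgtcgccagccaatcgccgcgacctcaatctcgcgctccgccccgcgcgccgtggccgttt
Rragc (chr4:123917313-123917432): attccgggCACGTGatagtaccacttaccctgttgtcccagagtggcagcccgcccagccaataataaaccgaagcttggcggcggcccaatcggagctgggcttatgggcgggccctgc
The Lamp1 window holds 4 cores and the Mcoln1 window 2, whereas the other windows hold 1 each. A match describes these letters only.

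Levels are log2 of the processed spot signal relative to the 75th percentile of the array, so a level of 0 is the signal at that percentile, and only levels of the same gene are set against each other. Changes are differences of group means with their standard errors (SE) from limma, and a gene rose or fell where its adjusted p was under 0.05. The signal at the 75th percentile was 336 to 459 on fatty acid arrays and 380 to 823 on PERK arrays, above a local background of 18 to 26, and replicates correlated at 0.993 to 0.998 over all entries. The cells carried the marks of their label: 10 beta cell markers were detected, 9 or 10 on each array, and Ins1 lay between 9.31 and 10.14. Of 12 macrophage markers, Adgre1, Lyz2 and C1qc were well above background on 0 arrays, while Csf1r, C1qa, C1qb and Itgam were so on 21. The summed level of 9 heart muscle markers was 3.21 to 3.59 in untreated and 3.40 to 3.65 in oleate cells but 0.41 to 0.93 in palmitate cells, and that of 12 skeletal muscle markers ran from 0.74 to 4.65 in palmitate cells, with palmitate replicates 1 and 2 high, against 1.06 to 1.29 in untreated cells. Their part in the palmitate results was not tested. In the PERK experiment the median of the beta cell markers was 5.66 to 5.80 in mock cells, 3.87 to 3.90 at 6 h and 4.30 to 4.35 at 48 h, and its part in the changes below was not tested. In such bulk samples fewer cells of a type and less RNA per cell cannot be told apart. Mock Fv2E-PERK cells and the 6, 12 and 24 h arrays shared a slide, and the 48 h arrays shared another with wild-type mock cells, so that at 48 h against Fv2E-PERK mock the slide and the treatment cannot be told apart.

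After PERK activation nearly the whole lysosomal group was lower at first, and by 48 h regulators and part of the pump stood above mock while most hydrolases and membrane proteins stood below it. At 6 h of AP20187, 33 of 35 members fell and 2 rose, Tfeb and Tfe3, where 40.0% of all 23388 entries tested fell, 24.9% rose and 64.9% were called in either direction. At 12 h, 29 fell and 2 rose (background 40.5% lower, 27.2% higher, 67.7% in all), and at 24 h, 25 fell and 5 rose (40.4%, 27.0% and 67.4%). At 48 h, 18 fell and 12 rose, where 34.6% of entries fell, 27.2% rose and 61.8% were called. The median log2 change of the members was -1.16, -1.40, -0.74 and -0.36 at the 4 times, against -0.23, -0.19, -0.20 and -0.07 over all entries. Of the 33 genes that fell at 6 h, 18 were still below mock at 48 h, 10 had risen above it and 5 were not called. The 10 were Flcn, Fnip1, Rragc, Rragd, Tpp1, Cln3, Atp6v0d1, Atp6v1h, Atp6v1b2 and Atp6v1c1.

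These directions are relative to the bulk of the array and depend on the scaling. When arrays were scaled to 7 spike-in probes instead, the median over all entries moved to 0.44, 0.54, 0.73 and 0.52 at 6, 12, 24 and 48 h, and the share of entries higher and lower at 6 h to 38.9% and 4.61%, at 12 h to 45.0% and 6.13%, at 24 h to 55.6% and 3.85%, and at 48 h to 43.1% and 5.66%. The members then counted 2 up and 14 down at 6 h, 4 and 19 after 12 h, 12 and 0 after 24 h, and 16 and 2 at 48 h, with medians of -0.49, -0.67, 0.19 and 0.23. This scaling shifts all entries of an array alike, so the gap between the members' median and that of all entries could not change. Quantile normalization, with 28.9% of entries higher and 30.1% lower at 6 h and 30.1% and 30.5% at 48 h, gave 3 up and 30 down at 6 h and 15 up and 11 down at 48 h.

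**Figure D1:**
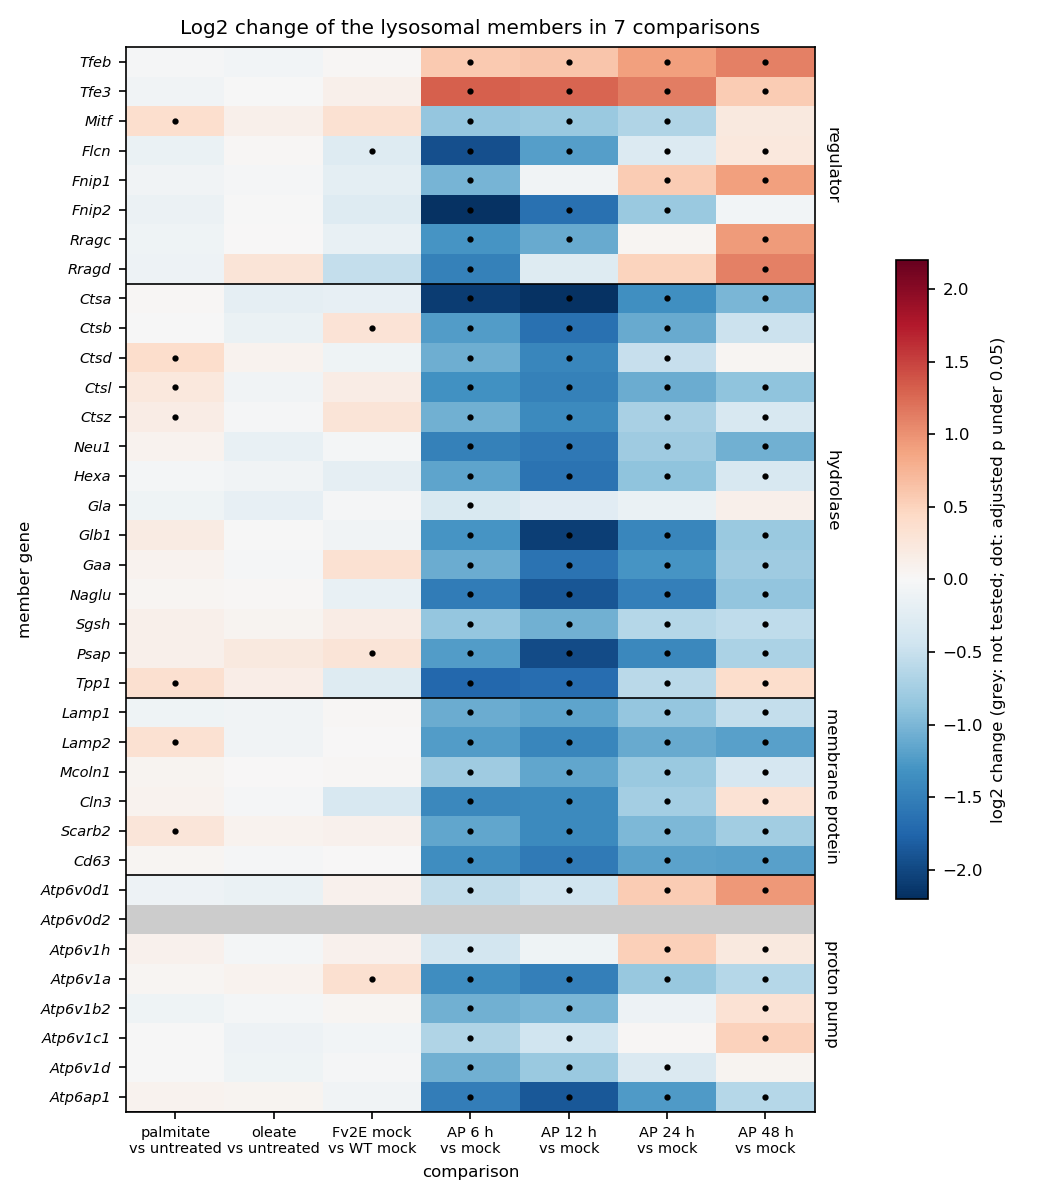
Log2 change of each of the 36 members (rows, ordered by class) in 7 comparisons (columns), from blue (lower) to red (higher), scaled to the 75th percentile of each array; dots mark an adjusted p under 0.05 and grey marks Atp6v0d2, which was not tested. At 6 h of AP20187, 33 of 35 squares are blue; by 48 h most regulators are red and most hydrolases blue, the latter with a class median of -0.62 that becomes -0.04 with spike-in scaling.

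Among the regulators, both members that rose at 6 h are transcription factors of the programme itself. Tfe3, a ubiquitous partner of Tfeb, was at 3.90 and 3.92 in mock cells, 5.23 and 5.24 at 6 h, 5.27 and 5.11 after 12 h, 5.07 and 4.99 after 24 h, and 4.52 and 4.41 at 48 h. All arrays with AP20187 lay above both mock arrays, with the highest levels in the first day. Its change was 1.32 ± 0.08 at 6 h (adjusted p = 5.7e-06), 1.28 at 12 h, 1.12 at 24 h and 0.55 ± 0.08 at 48 h (adjusted p = 0.00048). Its other probe gave 1.33, 1.32, 1.69 and 1.46 at these times, so that the late decline was seen with the brightest probe only. Tfeb, the factor after which the axis is named, was dimmer and noisier. It was at -2.77 and -3.19 in mock cells, -2.42 and -2.38 at 6 h, -2.47 and -2.26 after 12 h, -2.18 and -1.95 after 24 h, and -1.94 and -1.82 at 48 h. The groups did not overlap with mock at any time, and the order ran opposite to that of the brightest Tfe3 probe, with the highest levels at 48 h. Tfeb rose by 0.58 ± 0.16 at 6 h (adjusted p = 0.012), 0.61 at 12 h, 0.91 at 24 h and 1.1 ± 0.16 at 48 h (adjusted p = 0.00045). Its call at 6 h was lost without mock replicate 2 (0.36) or without the second 6 h array, and the 12 h call without mock replicate 2 (0.40) or the second 12 h array. With spike-in scaling both genes still rose at all 4 times, Tfeb by 1.24 and Tfe3 by 1.99 at 6 h.

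Mitf, the third factor of the family, went the other way early on. Its levels were 0.57 and 0.49 in mock cells, -0.40 and -0.23 at 6 h, -0.29 and -0.26 after 12 h, -0.04 and -0.23 after 24 h, and 0.61 and 0.90 at 48 h. It lay below both mock arrays through 24 h and above both at 48 h. The fall was -0.85 ± 0.17 at 6 h (adjusted p = 0.0027), while the change of 0.22 ± 0.17 at 48 h was not called and its other probe gave -0.41 there, also uncalled. With spike-in scaling its change of -0.67 at 24 h became 0.26, and at 48 h it rose by 0.81 (adjusted p = 0.027).

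The genes of the Rag GTPase axis, which keep the factors at the lysosome when nutrients are present, fell together at 6 h and were at or above mock by 48 h. Flcn, the GTPase-activating protein for RagC and RagD, was at 3.89 and 3.90 in mock cells, 1.97 and 1.94 at 6 h, 2.68 and 2.69 after 12 h, 3.62 and 3.56 after 24 h, and 4.13 and 4.13 at 48 h. Replicates differed by at most 0.06, and each later time lay above the one before it. Flcn fell by 1.94 at 6 h (SE 0.08, adjusted p = 1.6e-06), and the rise of 0.24 ± 0.08 at 48 h was small (adjusted p = 0.035) and lost its call without any 1 of the mock, 6 h or 48 h arrays. Fnip2, a binding partner of folliculin, was at 1.40 and 1.26 in mock cells, -0.83 and -0.86 at 6 h, -0.26 and -0.39 after 12 h, 0.59 and 0.42 after 24 h, and 1.36 and 1.17 at 48 h. Its change of -2.18 ± 0.12 at 6 h (adjusted p = 3.6e-06) was the largest among the members at that time, and the change at 48 h was -0.06 ± 0.12 (adjusted p = 0.67). Fnip1, the other partner, was at 4.03 on both mock arrays, 2.91 and 3.09 at 6 h, 3.83 and 4.07 after 12 h, 4.61 and 4.57 after 24 h, and 4.92 and 4.96 at 48 h. It thus lay below mock at 6 h, overlapped it at 12 h and lay above it from 24 h on. It fell by 1.03 at 6 h (adjusted p = 0.00011) and rose by 0.91 ± 0.12 at 48 h (adjusted p = 0.00023).

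The 2 Rag GTPases followed the same course. Rragc was at 4.04 and 3.92 in mock cells, 2.72 and 2.66 at 6 h, 2.95 and 2.79 after 12 h, 4.03 and 4.03 after 24 h, and 4.90 and 4.91 at 48 h. Its 6 h and 12 h levels lay far below mock, its 24 h level lay within the mock pair, and its 48 h level lay above it. Its change was -1.29 ± 0.08 at 6 h (adjusted p = 5.8e-06) and 0.93 ± 0.08 at 48 h (adjusted p = 2.8e-05). Rragd, which is itself a known TFEB target, was at -2.23 and -2.25 in mock cells, -3.57 and -3.86 at 6 h, -2.74 and -2.31 after 12 h, -2.21 and -1.29 after 24 h, and -0.97 and -1.31 at 48 h. Its replicates were wide apart at 24 h, and the 48 h arrays lay above both mock arrays. Its change was -1.48 ± 0.29 at 6 h (adjusted p = 0.0022) and 1.1 ± 0.29 at 48 h (adjusted p = 0.010), a call lost without the first 48 h array (0.93). As a class, 6 of 8 regulators fell at 6 h (median -1.16) and 6 rose with 0 fallen at 48 h (median 0.73). With spike-in scaling these were 4 fallen at 6 h and 7 risen at 48 h (medians -0.50 and 1.32). Their median at 12 h was -0.55 as reported and 0.18 with spike-in scaling, and at 24 h the changes of Flcn and Fnip2, -0.30 and -0.82 as reported, became 0.63 and 0.11.

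**Figure D2:**
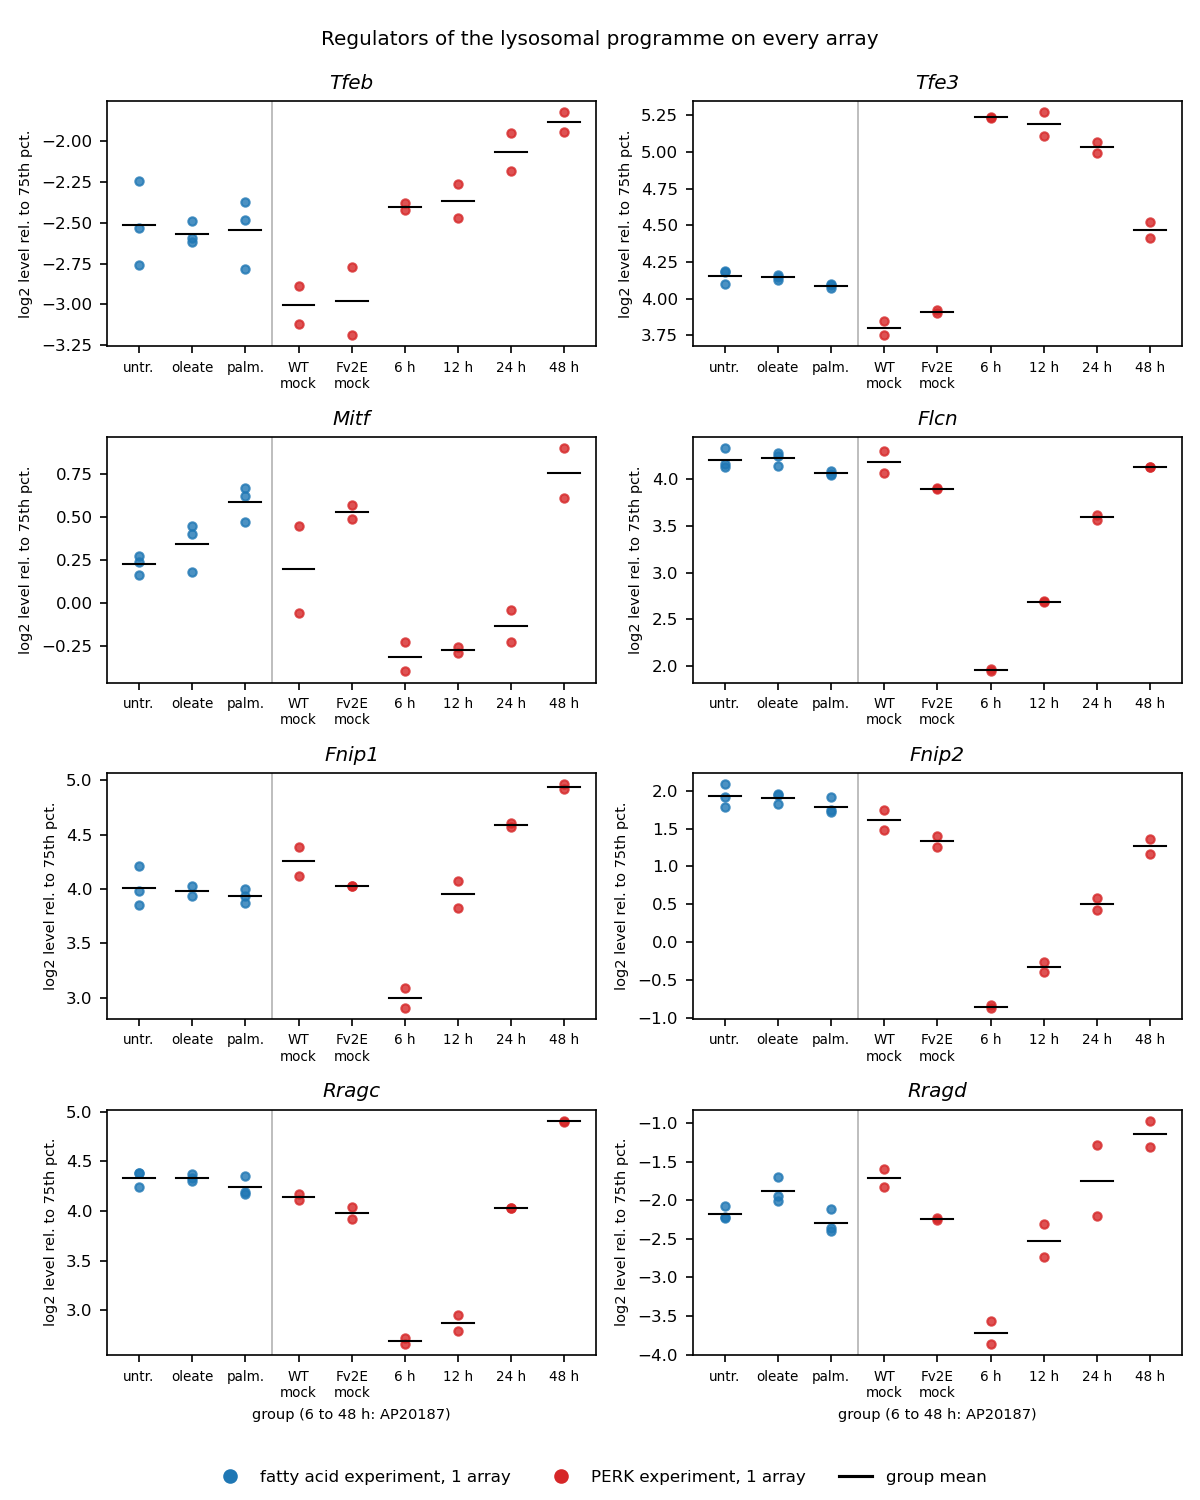
Levels of the 8 regulators on each array (points; log2 relative to the array's 75th percentile), by group, with black lines at group means; blue points are fatty acid arrays and red points PERK arrays, whose levels should be compared only within an experiment. Tfe3 and Tfeb lie above mock at each AP20187 time, while Flcn, Fnip1, Fnip2, Rragc and Rragd dip at 6 h and climb to 48 h; Flcn goes from 3.89 and 3.90 in mock cells to 1.97 and 1.94.

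The hydrolases fell more uniformly and stayed low for longer. All 14 fell at 6 h, 13 after 12 h and 13 at 24 h, whereas at 48 h 11 fell, 1 rose and 2 were not called. Their median change was -1.23, -1.62, -1.0 and -0.62 at the 4 times, so that the low point came at 12 h, where the range was -2.17 to -0.25. With spike-in scaling 6 and 12 of the 14 fell at 6 h and 12 h with 0 risen, whereas 0 fell later and 1 rose at 24 h (Gla, 0.80) and 3 at 48 h (Tpp1, 0.97, Gla, 0.70, and Ctsd, 0.63), with medians of -0.56, -0.90, -0.06 and -0.04.

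Ctsa, protective protein/cathepsin A, a carboxypeptidase that also holds neuraminidase and beta-galactosidase in a stable complex, was at 6.13 and 6.14 in mock cells. It was at 4.01 and 4.08 at 6 h, 4.03 and 3.90 after 12 h, 4.74 and 4.82 after 24 h, and 5.14 and 5.12 at 48 h. No treated array came within 0.9 log2 units of mock, and the levels climbed back only in part. Ctsa fell by 2.09 at 6 h (SE 0.11, adjusted p = 2.8e-06) and by 1.01 at 48 h (adjusted p = 8e-05). The other 2 enzymes of that complex moved with it. Neu1, the lysosomal sialidase, was at 6.80 and 6.63 in mock cells, 5.24 and 5.20 at 6 h, 5.14 and 5.13 after 12 h, 5.90 and 5.96 after 24 h, and 5.65 and 5.67 at 48 h. It partly recovered at 24 h and was lower again at 48 h, where its change was -1.05 ± 0.08 (adjusted p = 2e-05). Glb1, beta-galactosidase, fell by 1.30 at 6 h, 2.07 at 12 h and 0.82 at 48 h (adjusted p = 8.7e-05).

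Naglu, which removes N-acetylglucosamine from heparan sulfate, was at 3.64 and 3.54 in mock cells, 2.07 and 2.05 at 6 h, 1.79 and 1.62 after 12 h, 2.07 and 2.09 after 24 h, and 2.70 and 2.74 at 48 h. It was low through 24 h and regained part of its level at 48 h, with a change of -0.87 ± 0.09 (adjusted p = 6e-05). Ctsl, a cysteine protease, was at 8.29 and 8.17 in mock cells, 6.87 and 6.91 at 6 h, 6.65 and 6.85 after 12 h, 7.20 and 7.06 after 24 h, and 7.33 and 7.34 at 48 h. It was among the hydrolases that came back least, with -1.34 ± 0.13 at 6 h and -0.89 ± 0.13 at 48 h (adjusted p = 0.00049). Ctsz, another cysteine protease, was at 5.81 and 5.74 in mock cells, 4.72 and 4.75 at 6 h, 4.44 and 4.33 after 12 h, 4.95 and 5.18 after 24 h, and 5.44 and 5.41 at 48 h, a change of -0.36 ± 0.10 at the last time (adjusted p = 0.016). The last call did not hold: it was lost without mock replicate 1 or either 48 h array, and the change was -0.01 with quantile normalization and 0.23 with spike-in scaling.

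2 proteases stood apart within the class at 48 h. Tpp1, tripeptidyl peptidase 1, was at 1.64 and 1.54 in mock cells, -0.20 and -0.06 at 6 h, -0.04 and -0.14 after 12 h, 1.11 and 0.88 after 24 h, and 1.98 and 1.97 at 48 h. It went from well below mock to above it, with -1.72 ± 0.10 at 6 h (adjusted p = 4e-06) and 0.38 ± 0.10 at 48 h (adjusted p = 0.0084), a call lost without mock replicate 2. Ctsd, cathepsin D, the main aspartic protease of lysosomes, was at 6.03 and 5.99 in mock cells, 4.92 and 4.96 at 6 h, 4.59 and 4.55 after 12 h, 5.33 and 5.67 after 24 h, and 6.07 and 6.04 at 48 h. It was back at the mock level by 48 h, with a change of 0.05 ± 0.11 (adjusted p = 0.73), but with spike-in scaling it rose by 0.63 (adjusted p = 0.034). The remaining hydrolases were Ctsb, Hexa, Gla, Gaa, Sgsh and Psap, of which 5 fell at 48 h by between 0.36 (Hexa) and 0.79 (Gaa), where the other Gaa probe gave -0.01. Gla, alpha-galactosidase A, changed least of the 14 at 6 h, by -0.33 ± 0.11 (adjusted p = 0.027), and by 0.12 at 48 h (adjusted p = 0.37).

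Membrane proteins resembled the hydrolases. All 6 fell at 6, 12 and 24 h, and at 48 h 5 fell and 1 rose, with medians of -1.19, -1.40, -0.92 and -0.65. With spike-in scaling 2, 4, 0 and 2 fell and the medians were -0.52, -0.67, 0.01 and -0.07. Under that scaling 1 rose at 48 h, Cln3, by 0.91. Lamp2, which lines the lysosomal membrane and serves in chaperone-mediated autophagy, was at 4.87 and 4.78 in mock cells, 3.62 and 3.58 at 6 h, 3.36 and 3.41 after 12 h, 3.71 and 3.72 after 24 h, and 3.60 and 3.65 at 48 h. By this probe its change was -1.23 ± 0.07 at 6 h (adjusted p = 3.6e-06) and -1.20 ± 0.07 at 48 h (adjusted p = 3.6e-06). The other Lamp2 probe went from -1.63 at 6 h to -0.72 at 48 h, so that the probes differ on a recovery. Cd63, a tetraspanin of late endosomes and lysosomes, was at 8.92 and 8.90 in mock cells, 7.53 and 7.55 at 6 h, 7.29 and 7.40 after 12 h, 7.66 and 7.81 after 24 h, and 7.69 and 7.72 at 48 h. It stayed low, at -1.20 ± 0.11 at 48 h (adjusted p = 3.7e-05). With spike-in scaling Lamp2 and Cd63 were the 2 members still called lower at 48 h, each by -0.62.

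Scarb2, the receptor that carries glucocerebrosidase to lysosomes, was at 3.35 and 3.21 in mock cells, 2.11 and 2.16 at 6 h, 1.89 and 1.87 after 12 h, 2.28 and 2.30 after 24 h, and 2.51 and 2.49 at 48 h. Its change at 48 h was -0.77 ± 0.10 (adjusted p = 0.00019), with no overlap with mock at any time. Lamp1, the most abundant protein of the lysosomal membrane, was at 7.90 and 7.81 in mock cells, 6.73 and 6.78 at 6 h, 6.69 and 6.70 after 12 h, 7.01 and 7.01 after 24 h, and 7.32 and 7.34 at 48 h. Its fall of 0.53 ± 0.08 at 48 h (log2 change -0.53, adjusted p = 0.00043) turned to 0.03 with quantile normalization and 0.06 with spike-in scaling. Mcoln1, the calcium channel of lysosomes, fell by 0.37 at 48 h (adjusted p = 0.020), and Cln3, whose loss causes a childhood form of neuronal storage disease, rose by 0.32 ± 0.12 (adjusted p = 0.048) after a change of -1.42 at 6 h.

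The proton pump divided by subunit. All 7 tested subunits fell at 6 h (median -1.06) and 6 at 12 h (-0.81), but at 24 h 2 rose and 3 fell (-0.11), and at 48 h 4 rose and 2 fell (0.22). With spike-in scaling 2 fell at 6 h, 2 fell and 1 rose at 12 h, and 5 rose with 0 fallen at 24 h and 48 h. Atp6v0d1, the V0 subunit that couples the rotor to the V1 sector, was at 4.48 and 4.50 in mock cells, 3.95 and 3.92 at 6 h, 4.18 and 3.93 after 12 h, 4.94 and 5.15 after 24 h, and 5.42 and 5.46 at 48 h. It lay below mock in the first 12 h and above it afterwards, with -0.55 ± 0.10 at 6 h (adjusted p = 0.0016), 0.56 at 24 h and 0.95 ± 0.10 at 48 h (adjusted p = 8.6e-05). With spike-in scaling its early changes were 0.11 at 6 h and 0.29 at 12 h, neither called, and the late ones 1.49 and 1.53. Atp6v1c1, a V1 subunit that tethers the catalytic head to the stator, was at 3.89 and 3.75 in mock cells, 3.18 and 3.15 at 6 h, 3.38 and 3.39 after 12 h, 3.89 and 3.82 after 24 h, and 4.35 and 4.29 at 48 h. It reached the mock level at 24 h and exceeded it at 48 h, by 0.50 ± 0.08 (adjusted p = 0.00059). Its early falls of -0.66 at 6 h and -0.44 at 12 h became 0.01 and 0.29 with spike-in scaling. Atp6v1b2, part of the catalytic head, rose by 0.31 (adjusted p = 0.029) and Atp6v1h, a regulatory subunit, by 0.22 ± 0.09 at 48 h.

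Atp6v1a and Atp6ap1 ran against them. Atp6v1a, the catalytic ATPase subunit, was at 5.79 and 5.53 in mock cells, 4.31 and 4.29 at 6 h, 4.17 and 4.16 after 12 h, 4.90 and 4.76 after 24 h, and 4.98 and 5.08 at 48 h. Its change at 48 h was -0.63 ± 0.11 (adjusted p = 0.0011), with no overlap with mock. Atp6ap1, an accessory protein needed for pump assembly, was at 3.97 and 4.08 in mock cells, 2.51 and 2.49 at 6 h, 2.19 and 2.11 after 12 h, 2.78 and 2.77 after 24 h, and 3.43 and 3.38 at 48 h. It fell by 1.52 at 6 h and 1.87 at 12 h and was still lower at 48 h, at -0.62 ± 0.08 (adjusted p = 0.00021). With spike-in scaling Atp6v1a and Atp6ap1 still fell at 6 h (-0.70 and -0.86), but at 48 h both were at -0.04 and not called. Atp6v1d, of the central stalk, fell by 1.06 at 6 h and was not called at 48 h (0.06).

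**Figure D3:**
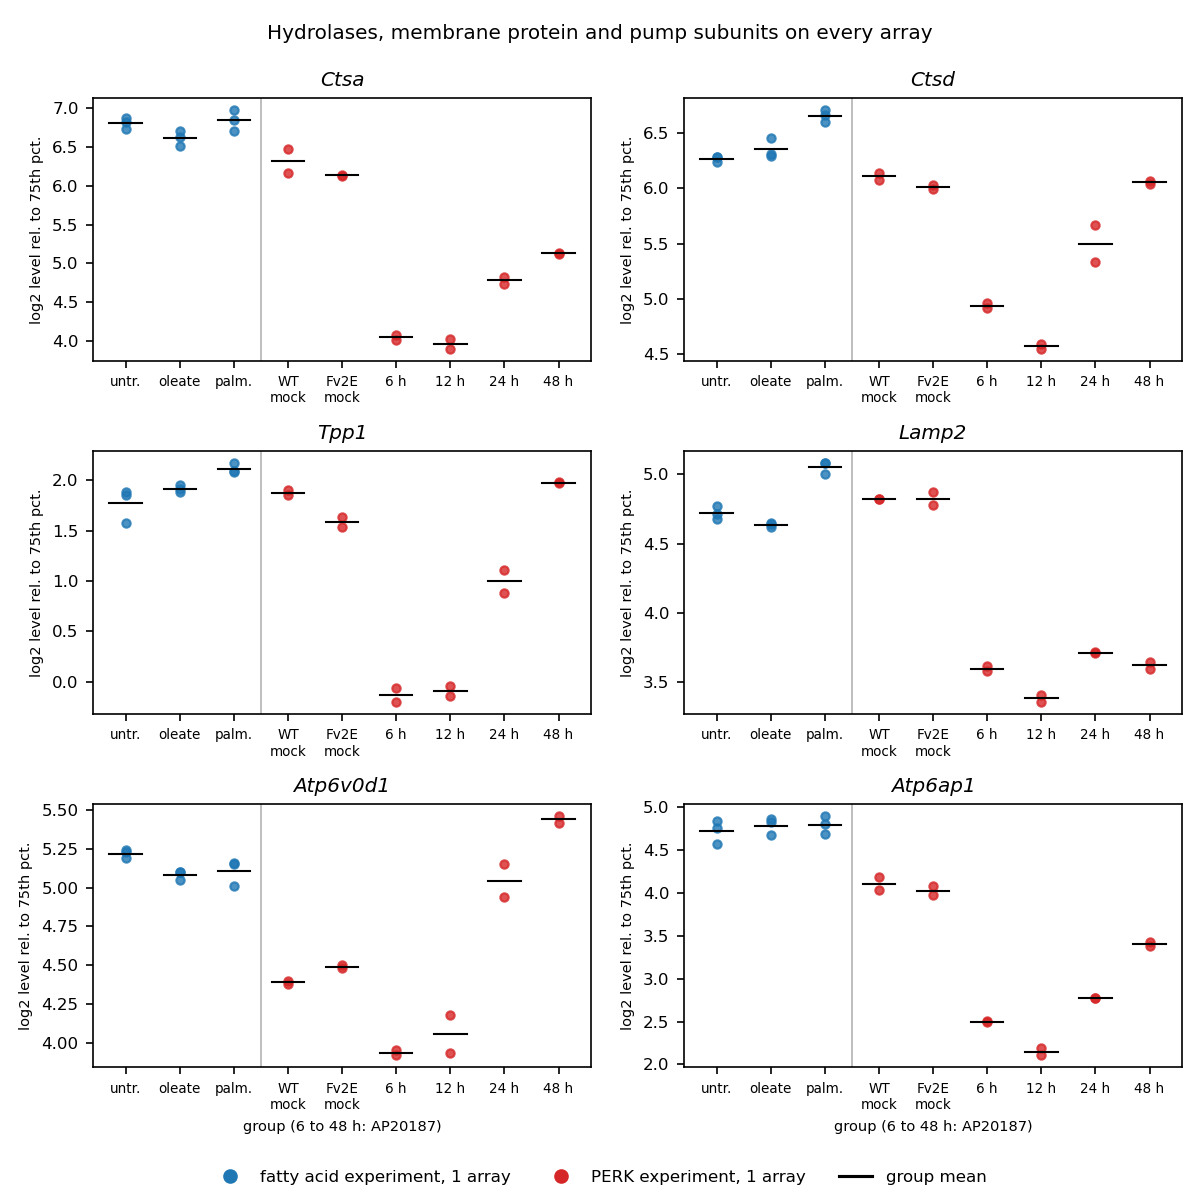
Levels on each array (points; log2 relative to the array's 75th percentile) of 3 hydrolases, a membrane protein and 2 pump subunits by group, with black lines at group means; blue points are fatty acid arrays and red points PERK arrays. Lamp2 is still at 3.60 and 3.65 at 48 h of AP20187, Ctsd and Tpp1 return to or pass the mock level, and Atp6v0d1 climbs to 5.42 and 5.46; in palmitate cells Ctsd, Tpp1 and Lamp2 lie above untreated cells.

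The late climb was tested directly by setting 48 h against 6 h, 2 groups that share no array but lie on different slides. Of 35 members, 30 were higher at 48 h and 1, Tfe3, was lower, where 33.2% of entries were higher, 27.6% lower and 60.8% called in either direction. The median difference was 2.02 for regulators, 0.60 for hydrolases, 0.40 for membrane proteins and 1.12 for pump subunits, against 0.10 over all entries. The largest differences were those of Rragd (2.58 ± 0.29), Rragc (2.22 ± 0.08), Flcn (2.18 ± 0.08), Fnip2 (2.11 ± 0.12) and Tpp1 (2.11 ± 0.10). Lamp2 (0.02), Cd63 (0.17), Sgsh (0.29) and Gaa (0.31) were not called, although the other probes of Lamp2 (0.91, adjusted p = 0.00014) and Gaa (1.18, adjusted p = 0.00071) were higher at 48 h. The other Tfe3 probe gave 0.13 (adjusted p = 0.21), so that the probes differ on a decline of Tfe3. The calls of Tfeb and Ctsl were lost without any 1 of the 6 h or 48 h arrays, and that of Scarb2 without the first array of either time. With spike-in scaling 17 were higher and 1 lower, a count given without the share of all entries under that scaling.

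Because 48 h and Fv2E-PERK mock lay on different slides, 48 h was also set against wild-type mock cells on its own slide, a comparison chosen after the data were seen, in which the cells differ by the transgene as well. Of the members, 9 rose and 16 fell, where 27.5% of entries rose, 36.3% fell and 63.8% were called. With quantile normalization 15 rose and 9 fell (31.0% and 32.0% of entries), and with spike-in scaling 17 rose and 0 fell (48.7% and 5.69%), so that these directions too depend on the scaling. As reported, regulators counted 5 up and 1 down (Fnip2, -0.35), hydrolases 0 up and 9 down, membrane proteins 0 up and 5 down, and pump subunits 4 up and 1 down, while with quantile normalization the hydrolases counted 4 up and 4 down. Lamp2 (-1.20), Cd63 (-1.19), Ctsa (-1.18) and Neu1 (-1.10) were lower here, but with spike-in scaling they were at -0.49, -0.48, -0.47 and -0.39 and not called (adjusted p = 0.10 to 0.19), and the other Lamp2 probe gave -0.38. Tfeb (1.12), Atp6v0d1 (1.05), Rragc (0.76) and Fnip1 (0.69) were higher, and with spike-in scaling as well (1.84, 1.76, 1.48 and 1.40). Tpp1 (0.10), Cln3 (-0.03) and Flcn (-0.05) were not called here, but with spike-in scaling they rose (0.82, 0.68 and 0.66). Rragd was not called here either, at -1.83 and -1.59 in wild-type mock cells against -0.97 and -1.31 at 48 h. It rose by 1.28 with spike-in scaling. Mitf, uncalled against Fv2E-PERK mock, rose here by 0.56, while its other probe gave -0.23 and was not called. Without AP20187 the lines differed in few members. In Fv2E-PERK mock against wild-type mock, also across slides, Ctsb (0.30), Psap (0.28) and Atp6v1a (0.36) were higher and Flcn (-0.29) lower, 4 of 35 members where 20.0% of entries were called (9.23% higher, 10.8% lower). This count fell to 0 without Fv2E-PERK mock replicate 1, to 1 without wild-type mock replicate 1 or any of the 6 h or 48 h arrays, and to 2 without Fv2E-PERK mock replicate 2 or either 12 h array.

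Genes of the same compartments outside the 36 were counted in 4 further lists, to be read against the 40.0% of all entries that fell and 24.9% that rose at 6 h, and the 34.6% and 27.2% at 48 h. Of 33 other hydrolases and activators tested, 33 fell at 6 h (median -1.13) and 23 fell and 6 rose at 48 h (-0.63). By the same measure 11 of 15 other pump subunits fell at 6 h, and 8 fell and 3 rose at 48 h. Of 20 other membrane and sorting genes, 15 fell at 6 h, and 12 fell and 5 rose at 48 h. The Rag, Ragulator and mTORC1 list lay near those shares, with 9 down and 6 up of 20 at 6 h (median -0.26) and 7 down and 5 up at 48 h (-0.10). At 48 h, Dpp7, a dipeptidyl peptidase, rose by 1.52 ± 0.14, while the aminopeptidase Ctsh changed by -1.38. Clcn7, the chloride-proton exchanger of lysosomes, rose by 1.56 ± 0.10 and Npc1, which exports cholesterol, by 1.28 ± 0.19, whereas its soluble partner Npc2 changed by -1.25 ± 0.07. Of the pump genes Atp6v0e changed by -1.27, and the tissue-restricted Atp6v1c2 and Atp6v0a4, not well above background in mock cells, were at least 1.40-fold and at least 1.76-fold higher at 48 h. A bound of this kind sets the brighter mean against the dimmest signal still well above background on the mock arrays, or the gene's own signal where higher. Among nutrient sensors, Sesn1 changed by -1.48, Sesn3 by -1.44 and the Ragulator subunit Lamtor2 by -0.93.

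Palmitate, a saturated fatty acid that stresses beta cells, changed members by little, and the share called lay near that of all entries. After 48 h, 7 of 35 rose and 0 fell against untreated cells, where 7.41% of 21282 entries rose, 12.6% fell and 20.1% were called. They were 4 hydrolases (Ctsd, Tpp1, Ctsl, Ctsz), 2 membrane proteins (Lamp2, Scarb2) and 1 regulator (Mitf), with 0 of 7 pump subunits. Class medians were 0.10 for hydrolases, 0.07 for membrane proteins, -0.01 for the pump and -0.09 for regulators, against -0.05 over all entries.

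Ctsd was at 6.24, 6.28 and 6.28 in untreated cells, 6.31, 6.29 and 6.46 with oleate, and 6.60, 6.71 and 6.66 with palmitate. The palmitate arrays lay above all others, and the change was 0.39 ± 0.06 (adjusted p = 0.0039), with 0.26 for its other probe, not called. Lamp2 was at 4.68, 4.77 and 4.71 in untreated cells, 4.62, 4.65 and 4.64 with oleate, and 5.08, 5.08 and 5.0 with palmitate. These groups did not overlap either, and the change was 0.34 ± 0.05 (adjusted p = 0.0027), but the other Lamp2 probe gave -0.03 ± 0.09, so that the probes disagree. Scarb2 was at 4.06, 4.01 and 4.04 in untreated cells, 4.10, 4.11 and 4.11 with oleate, and 4.31, 4.35 and 4.24 with palmitate. Its change was 0.26 ± 0.05 (adjusted p = 0.0070), again without overlap. Ctsd, Lamp2 and Scarb2 were the members whose call held when each array in turn was left out.

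Tpp1 was at 1.88, 1.58 and 1.85 in untreated cells, 1.91, 1.95 and 1.88 with oleate, and 2.08, 2.17 and 2.09 with palmitate, a rise of 0.35 ± 0.08 (adjusted p = 0.021). Untreated replicate 2 lay below the others, and the call was lost without palmitate replicate 1 or 2. Mitf was at 0.16, 0.27 and 0.24 in untreated cells, 0.45, 0.40 and 0.18 with oleate, and 0.47, 0.62 and 0.67 with palmitate. Palmitate lay above untreated cells without overlap, by 0.37 ± 0.09 (adjusted p = 0.021), but 1 oleate array was close to it. The other Mitf probe gave 0.19 (adjusted p = 0.15), and the call was lost without untreated replicate 1 or 3 or palmitate replicate 2 or 3. Ctsl was at 8.04, 8.21 and 8.02 in untreated cells, 8.08, 8.01 and 7.97 with oleate, and 8.28, 8.32 and 8.39 with palmitate (0.24 ± 0.07, adjusted p = 0.036). Ctsz was at 5.91, 5.87 and 5.86 in untreated cells, 5.85, 5.84 and 5.88 with oleate, and 6.06, 6.03 and 6.04 with palmitate (0.16 ± 0.04, adjusted p = 0.028). Both changes were small beside tight replicates. The Ctsl call was lost in 8 of the 9 fits that left out 1 array and the Ctsz call in 7 of 9.

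The other members were not called by their brightest probe. A dimmer probe of Cln3 rose by 0.44 ± 0.07 (adjusted p = 0.0057), more than any called member, while its brightest probe (0.08) and another (0.11) were not called. Tfeb was at -2.53, -2.24 and -2.76 in untreated cells, -2.49, -2.62 and -2.59 with oleate, and -2.48, -2.37 and -2.78 with palmitate, a change of -0.03 ± 0.15 (adjusted p = 0.90). The 3 groups overlapped fully. Tfe3 (-0.07 ± 0.04), Flcn (-0.14 ± 0.07), Fnip1 (-0.08 ± 0.10), Fnip2 (-0.13 ± 0.09), Rragc (-0.10 ± 0.07) and Rragd (-0.12 ± 0.11) were not called, and pump subunits ranged from -0.11 to 0.09. The Fnip1 value of 1 oleate array was missing because its spot was an outlier. The count of 7 became 3 without palmitate replicate 2, 4 without palmitate replicate 1, palmitate replicate 3 (alone on its slide) or untreated replicate 3, and 0 without palmitate replicates 1 and 2, the arrays with high skeletal muscle markers, where Ctsd (0.39, adjusted p = 0.055) and Lamp2 (0.28, adjusted p = 0.060) kept most of their size with 1 palmitate array left. With spike-in scaling the count was 0. The changes of the 7 were then larger, by a shift common to all entries, but their standard errors were wider. Ctsd was at 0.51 ± 0.15 and Lamp2 at 0.46 ± 0.16.

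Oleate, a monounsaturated fatty acid at the same dose and time, changed 0 of 35 members by limma, where 0.836% of entries were called (0.334% higher, 0.503% lower). At an unadjusted p under 0.05, 6 members passed, Rragd, Ctsa, Ctsb, Neu1, Psap and Atp6v0d1, where 16.3% of entries did. Changes ran from -0.20 for Ctsa to 0.28 for Rragd, with a median of -0.02.

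Set directly against oleate, palmitate raised 6 members and lowered 1, where 7.48% of entries were higher, 6.27% lower and 13.7% called. Lamp2 differed by 0.41 ± 0.05 (adjusted p = 0.0014), Ctsd by 0.31 ± 0.06, Ctsl by 0.31 ± 0.07, Neu1 by 0.23 ± 0.05, Ctsz by 0.19 ± 0.04 and Scarb2 by 0.19 ± 0.05. The other Lamp2 probe gave -0.04 here. Rragd was at -1.95, -2.01 and -1.70 with oleate and -2.36, -2.12 and -2.40 with palmitate, a difference of -0.41 ± 0.11 (adjusted p = 0.041). This comparison and the one against untreated cells share the palmitate arrays. The count of 7 fell to 1 without oleate replicate 2, to 2 without oleate replicate 1 or 3, to 3 without palmitate replicate 2 and to 4 without palmitate replicate 1 or 3. With spike-in scaling it fell to 0, with wider standard errors. Lamp2 was then at 0.60 ± 0.16, Ctsd at 0.50 ± 0.15 and Rragd at -0.22 ± 0.14.

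In the wider lists the shares called with palmitate lay near the 20.1% of all entries (7.41% higher, 12.6% lower). Palmitate raised 5 and lowered 1 of 33 other hydrolases, with Dpp7 at 0.41, the phosphatase Acp2 at 0.38 and Hgsnat, an acetyltransferase of heparan sulfate breakdown, at -0.54 ± 0.05. It lowered 2 of 13 other pump subunits, Atp6v0e and Atp6v0a1, each by -0.23. Of 20 membrane and sorting genes 1 rose, Npc1 (0.37), and 3 fell, among them the sorting receptor Sort1 (-0.41) and the potassium channel Tmem175 (-0.27). Of 20 genes of the Rag and mTORC1 list 2 rose and 3 fell, with Sesn2, a leucine sensor and stress-induced gene, at 0.43 ± 0.05, Sesn3 at -0.60 and Sesn1 at -0.35.

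Palmitate and PERK activation were then compared over the same 48 h by testing the difference of their changes in 1 fit over all arrays. The controls of the experiments share no array, but the experiments differ in their cells and controls. Of 35 members 28 differed, 19 with a higher change under palmitate and 9 with a lower one, where 27.9% of entries were higher, 23.3% lower and 51.2% called. Hydrolases counted 12 higher and 0 lower, membrane proteins 5 and 0, pump subunits 2 and 3, and regulators 0 and 6. With quantile normalization 10 were higher and 11 lower in all, and with spike-in scaling 2 and 10, the 6 regulators being lower under each. The shares of all entries under these scalings are not given here, so the shift of these counts cannot be read as particular to the members.

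By its brightest probe Lamp2 had the widest gap, 1.54 ± 0.07 (adjusted p = 1.8e-09), from changes of 0.34 with palmitate and -1.20 at 48 h of AP20187. By its other probe, which did not rise with palmitate, the gap was 0.69, below those of Cd63, Ctsl and Neu1. The gap of the brightest probe was 1.35 with quantile normalization and 1.08 with spike-in scaling. Scarb2 (gap 1.04), Ctsl (1.13) and Ctsz (0.52) rose with palmitate and fell with AP20187. Cd63 (1.24) and Neu1 (1.13) fell with AP20187 and were not called with palmitate. In the other direction lay Rragd (-1.22 ± 0.31), Tfeb (-1.13 ± 0.23), Atp6v0d1 (-1.06 ± 0.11), Rragc (-1.02 ± 0.10) and Fnip1 (-0.99 ± 0.15), which rose with AP20187 and were not called with palmitate. By the brightest probes Tpp1 was the member that rose in both, by 0.35 and 0.38 (gap -0.04 ± 0.12, adjusted p = 0.83). Each of these Tpp1 calls was lost without certain single arrays, and Tpp1 was not called at 48 h against wild-type mock. A dimmer Cln3 probe rose in both as well, by 0.44 and 0.60. The gap of Ctsd, 0.35 ± 0.12 as reported, was -0.02 with quantile normalization and -0.12 with spike-in scaling, and that of Lamp1, 0.42, was -0.05 and -0.04.

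**Figure D4:**
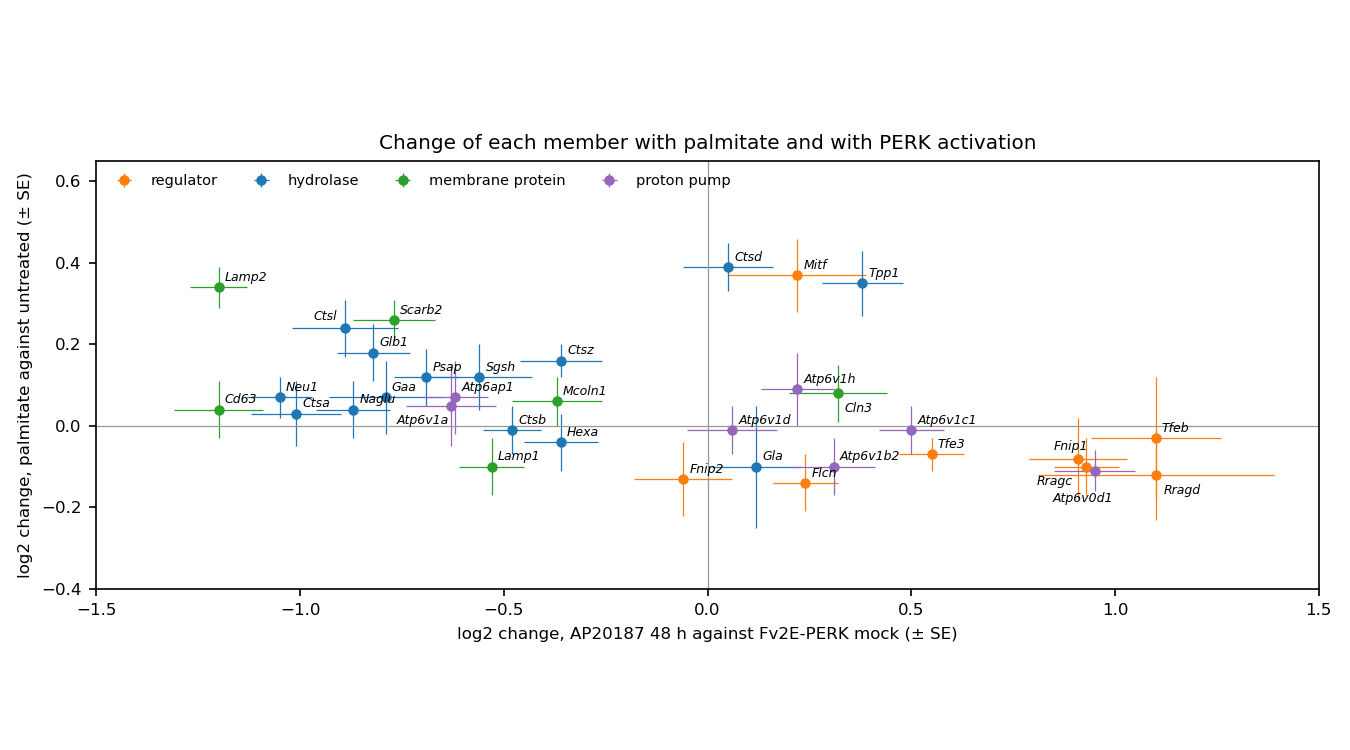
Log2 change with palmitate against untreated cells (vertical) and at 48 h of AP20187 against Fv2E-PERK mock (horizontal) for the 35 tested members, coloured by class, with bars of ± SE. Tfeb, Fnip1, Rragc and Rragd sit to the right, near 0 on the vertical axis, Lamp2 sits at -1.20 and 0.34, and Tpp1 is raised on both axes (0.38 and 0.35).

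The changes were also set out by the E-box core shown above. At 6 h, 14 of 14 with the core fell (median -1.20) and of 17 without it 15 fell and 2 rose (-1.23). At 48 h, 9 of 14 with the core fell and 3 rose (-0.55, range -1.01 to 0.93), against 8 and 6 of 17 without it (-0.06, range -1.20 to 1.1). Of all entries 40.0% fell and 24.9% rose at 6 h, and 34.6% fell and 27.2% rose at 48 h. With palmitate 2 of 14 with the core rose and 5 of 17 without, where 7.41% of entries rose. Lamp2, Cd63 and Scarb2 have no core in the window, and Fnip1 and Rragc, which rose at 48 h, have 1 each. These counts are given as a description with no test, and they say nothing of which factor was bound.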

How the data were processed

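RNA was labelled with Cy3 and hybridised to one-colour Agilent arrays, per the labels. The authors deposited spot intensity values from Agilent Feature Extraction 10.7.1.1, named in the submitters' processing notes; per the file headers these are background-subtracted and detrended, with no scaling between arrays. The deposited series matrix holds log2 values, used as an alternative: direction and log base follow from the scanner values, while their centring is unknown. Its column medians are 0.26, 0.01 and -0.26 (untreated), 0.35, -0.13 and -0.18 (oleate), -0.27, -0.23 and -0.26 (palmitate), 0.12 and 0.09 (wild-type mock), 0.19 and 0.33 (Fv2E-PERK mock), and -0.32 to -0.12 on AP20187 arrays.

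The members, the other gene lists and the marker lists were chosen with earlier results of these data known. Control and outlier spots were left out, spots averaged per probe, and log2 signals reduced by the array's 75th percentile. Accessions matched a RefSeq symbol (GRCm38.p6) for 26582 of 55681 probes; 13 members had several probes. A probe or gene entered the test when every array of some group showed it well above background. Tests used limma 3.58.1 (lmFit, eBayes, R 4.3.3), per experiment, with Benjamini-Hochberg adjustment over all entries; adjusted p-values in the text come from these fits. The fits were tested on simulated data. Full values are given for the 8 regulators and, in each other class, for the up to 4 called members with the largest change under palmitate and at 48 h of AP20187; other members were named after their values were seen. In the wider lists the 3 largest called changes are named, except 1 that is not reported here. The title gave the replicate number of 1 wild-type mock array whose source name gives another. The comparison of 48 h with wild-type mock was added after the data were seen. Alternatives covered scaling, background (normexp on the median signal), filter, probe choice, blocks and arrays left out. The number of arrays limits the precision.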

Additional observations from a re-analysis of the deposited data

Results flagged for a closer look

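Members whose change against mock differed between 48 h and 6 h of AP20187 by a test of that difference (limma, adjusted p under 0.05) are listed here, 31 in all. Of all entries 60.8% were called by this test (33.2% higher, 27.6% lower). The changes at 48 h and at 6 h share the Fv2E-PERK mock arrays, which cancel in the difference, and the 2 times lie on different slides. Among the regulators the change at 48 h minus that at 6 h was 2.58 for Rragd, 2.22 for Rragc, 2.18 for Flcn, 2.11 for Fnip2, 1.94 for Fnip1, 1.07 for Mitf, 0.52 for Tfeb and -0.77 for Tfe3. Tfe3 was the member that declined, and its other probe gave 0.13. Fewer members were called with spike-in scaling, and the calls of Tfeb, Ctsl and Scarb2 were lost when certain single arrays were left out.

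Among the hydrolases the difference was 2.11 for Tpp1, 1.11 for Ctsd, 1.09 for Ctsa, 0.80 for Hexa, 0.75 for Ctsb, 0.69 for Ctsz, 0.66 for Naglu, 0.54 for Psap, 0.48 for Glb1, 0.45 for Gla, 0.45 for Ctsl and 0.44 for Neu1. Tpp1 thus climbed about as far as the Rag axis genes, while the other hydrolases climbed less. Among the membrane proteins it was 1.74 for Cln3, 0.58 for Lamp1, 0.42 for Mcoln1 and 0.37 for Scarb2. Among the pump subunits it was 1.5 for Atp6v0d1, 1.37 for Atp6v1b2, 1.16 for Atp6v1c1, 1.12 for Atp6v1d, 0.90 for Atp6ap1, 0.73 for Atp6v1a and 0.63 for Atp6v1h.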

How the results depend on the processing

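Of the counts of members called, 194 stayed within 1.5 times the reported count under an alternative and 46 did not; of the changes of single members, 3195 kept direction and call, 251 lost the call and 27 changed sign. With spike-in scaling the count of members called was 0 for palmitate against untreated, 0 for palmitate against oleate, 16 at 6 h, 12 at 24 h and 18 at 48 h against Fv2E-PERK mock, 18 for 48 h against 6 h, 0 for Fv2E-PERK against wild-type mock and 12 for palmitate minus AP20187 48 h. With the series matrix values it was 0 for palmitate against untreated, 1 for oleate against untreated, 0 for palmitate against oleate and 10 for palmitate minus AP20187 48 h. Without the filter on dim probes it was 3, 1 and 0 for palmitate against untreated, palmitate against oleate and Fv2E-PERK against wild-type mock; with normexp it was 4 for palmitate against oleate and 1 for Fv2E-PERK against wild-type mock. The second brightest probe gave 4 for palmitate against untreated, and fits of only the groups compared gave 4 there and 0 for Fv2E-PERK against wild-type mock. The slide block, which amounts to leaving out palmitate replicate 3, gave 4 for palmitate against untreated and 4 against oleate; in the PERK experiment each group lies on 1 slide, so a slide block was not run. Leaving out 1 array gave 3 to 6 for palmitate against untreated, 1 to 8 for palmitate against oleate and 0 to 5 for Fv2E-PERK against wild-type mock, and without palmitate replicates 1 and 2 the first 2 were 0 and 1. The cause of these differences was not tested.

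In the fatty acid experiment the replicate number showed no pairing of samples. Deviations of same-numbered arrays correlated at -0.03 to 0.04 there, and those of different-numbered arrays at -0.07 to 0.04. In the PERK experiment same-numbered arrays correlated weakly, at -0.01 to 0.13 (median 0.06). Different-numbered arrays there gave -0.13 to 0.01 (median -0.06), which mirrors these values and adds no separate evidence. Whether the replicate number pairs the PERK samples was not tested. With the replicate number as a block, 4 members were called for palmitate against untreated, 4 for palmitate against oleate and 1 for Fv2E-PERK against wild-type mock.

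Signs turned with spike-in scaling at 6 h for Atp6v0d1 (0.11) and Atp6v1c1 (0.01), at 12 h for Atp6v0d1 (0.29) and Atp6v1c1 (0.29), at 24 h for Mitf (0.26), Flcn (0.63), Fnip2 (0.11), Ctsd (0.42), Tpp1 (0.33), Ctsz (0.22), Neu1 (0.15), Lamp1 (0.08) and Atp6v1a (0.11), at 48 h for Ctsz (0.23) and Lamp1 (0.06), and in palmitate minus AP20187 for Ctsd (-0.12) and Lamp1 (-0.04). With quantile normalization they turned for Lamp1 at 48 h (0.03) and for Ctsd (-0.02) and Lamp1 (-0.05) in palmitate minus AP20187. With the matrix values they turned for Ctsz (-0.06) in palmitate against untreated and for Ctsz (-0.10), Neu1 (-0.05) and Scarb2 (-0.09) against oleate. In the fatty acid experiment the matrix values carry a constant per array. It was 0.35, 0.01 and -0.19 in untreated, 0.49, -0.03 and -0.12 in oleate, and -0.16, -0.18 and -0.17 in palmitate cells. The part of these constants in the turns was not tested. With the second brightest probe they turned for Lamp2 against untreated (-0.03) and oleate (-0.04) and for Tfe3 at 48 h against 6 h (0.13).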
